A study of Danio rerio with 52 samples.

Results

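The hair bundle and mechanotransduction genes of the lateral line were examined on expression arrays of cells sorted from the skin of zebrafish larvae, 4 days after fertilization. The genes were named by their symbols, 8 in all, and a probe set listed with that symbol had to be on the array. Of the 8, 7 were found among 19260 tested genes: cdh23, pcdh15a, tmc1, tmc2a, tmie, myo6b and myo7aa. The other, tmc2b, was not listed with a probe set and was not analysed here. Where a gene had more than 1 probe set, the one with the highest mean over all arrays was used, which applied to myo7aa with its 2 probe sets.

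A hair cell detects motion with its hair bundle, a stair of actin-filled stereocilia on its upper surface. Fine tip links join neighbouring stereocilia, and pulling on them opens the mechanotransduction channel. Cadherin 23 forms the upper part of each tip link and protocadherin 15 the lower part, next to a channel complex that holds TMC proteins and Tmie. Unconventional myosins, among them myosin VI and myosin VIIA, keep the bundle in shape, and zebrafish mutants of both lose hearing and balance. In zebrafish, hair cells of the lateral line are known to rely largely on the Tmc2 proteins.

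The study compared 4 sorted populations of untreated larvae, on 17 of the 52 arrays. GFP+ hair cells (n = 2) came from alpl:mCherry;pou4f3:GFP larvae, in which GFP is made by hair cells and mCherry by mantle cells, the supporting cells at the rim of each sense organ. The mCherry+/GFP+ mantle cells (n = 4) came from alpl:mCherry;Et20 larvae, in which most mantle cells also make GFP. The mCherry+ mantle cells (n = 5) and the non-fluorescent cells (n = 6) completed the set. The non-fluorescent cells are whatever the skin held without either marker, and the labels do not name the line that they or the mCherry+ mantle cells were taken from. Both kinds of transgene mark cells by the activity of a promoter, so a gate holds the cells in which that promoter or trap is on. Cells of several sorts were pooled for hair cells and for mCherry+/GFP+ mantle cells. In the second experiment, larvae were given 5 µM copper sulfate for 1 h, which kills lateral line hair cells. The mCherry+ mantle cells were collected 1 h, 3 h, 5 h and 11 h afterwards (n = 4 each). Non-fluorescent cells were taken at those times as well (n = 7 at 1 h and n = 4 at each later time). Hair cells and mCherry+/GFP+ mantle cells were sorted from untreated larvae alone. About 50 skins went into each sample. Precision is limited by how many arrays a group has.

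Levels are the deposited log2 values, compared within a gene and never between genes, since probe sets differ in brightness. A gene counts as called where its Benjamini-Hochberg adjusted p from limma, a linear model fitted to all 19260 genes, is below 0.05. In bulk samples, fewer cells of a type and less RNA per cell cannot be told apart. The labels do not say whether the arrays of a group came from separate clutches, so p-values rest on the spread between these samples. Per the labels, untreated arrays that did not cluster were discarded, so the spread between untreated arrays is that of the arrays kept.

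The hair cell arrays carried the label's markers. Of 16 measured hair cell markers, 13 were higher in hair cells than in non-fluorescent cells, and their mean log2 level was 8.32 and 8.37 on the hair cell arrays, against 4.19 to 5.23 on the non-fluorescent ones. The promoter of pou4f3 drives the GFP used for the sort, so its own level is no finding. The gene is 1 of the 16 markers, so it also enters their count and mean. Among other defining markers, gfi1aa averaged 10.01 ± 0.07 in hair cells (SD, n = 2) and 4.15 ± 0.44 in non-fluorescent cells (n = 6), and otofb averaged 10.77 ± 0.04 in hair cells and 5.06 ± 0.58 in non-fluorescent cells. The level of atoh1a, also a defining marker, is not given here, nor are the names of the markers that were not higher. Pigment cell markers moved with them, 10 of 17 higher and 4 lower than in non-fluorescent cells. Their summed linear level was 4568 to 4691 in hair cells and 386 to 557 in non-fluorescent cells. The 3 that define pigment cells were among those raised in hair cells: gch2 averaged 11.3 in hair cells and 3.29 in non-fluorescent cells, xdh 8.00 in hair cells and 3.53 in non-fluorescent cells, and mitfa 5.08 in hair cells and 2.89 in non-fluorescent cells. The mean log2 level of keratinocyte markers was 7.70 to 7.73 in hair cells. It was 5.98 to 6.93 in mCherry+ mantle cells and 8.71 to 9.67 in non-fluorescent cells. Blood cell markers summed to 1267 to 1360 in hair cells and 183 to 646 in mCherry+ mantle cells. Neuron markers summed to 614 to 673 and 239 to 376. The mean log2 levels of both lists in hair cells lay within the mCherry+ mantle range, and that of muscle markers lay below it. The part of these lists in the hair cell values below was not tested. The SD over genes of the difference between the 2 hair cell arrays was 0.308, and pairs of arrays in the other groups gave 0.245 to 0.823. Values that low occurred only in untreated non-fluorescent cells (0.245 to 0.728) and untreated mCherry+ mantle cells (0.307 to 0.531). The mCherry+/GFP+ mantle cells, also pooled from several sorts, gave 0.587 to 0.708. The 2 hair cell arrays were thus more alike than most pairs, and their small spread may not show that of separate samples. Array means lay between 4.27 and 4.30 in the untreated arrays, 4.29 and 4.37 in the copper mantle arrays and 4.45 and 4.48 in the copper non-fluorescent ones. Copper treatment and array set cannot be told apart.

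Hair cells held far more mRNA of 6 of the 7 genes than any other population, and the exception was tmc1. The 6 were both tip link cadherins, the channel subunit tmc2a, its partner tmie and both myosins. They were higher against non-fluorescent cells, against mCherry+ mantle cells and against mCherry+/GFP+ mantle cells. In each of these 18 comparisons no array of one group reached into the other. The share of all genes separated in this way is not given here. Calls of higher expression in hair cells made up 15.5% of all genes against non-fluorescent cells, 17.6% against mCherry+ mantle cells and 17.2% against mCherry+/GFP+ mantle cells. The median log2 difference of the 7 genes was 4.08, 3.37 and 3.99 in those comparisons, and that of all genes was -0.06, -0.03 and 0.01.

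**Figure D1:**
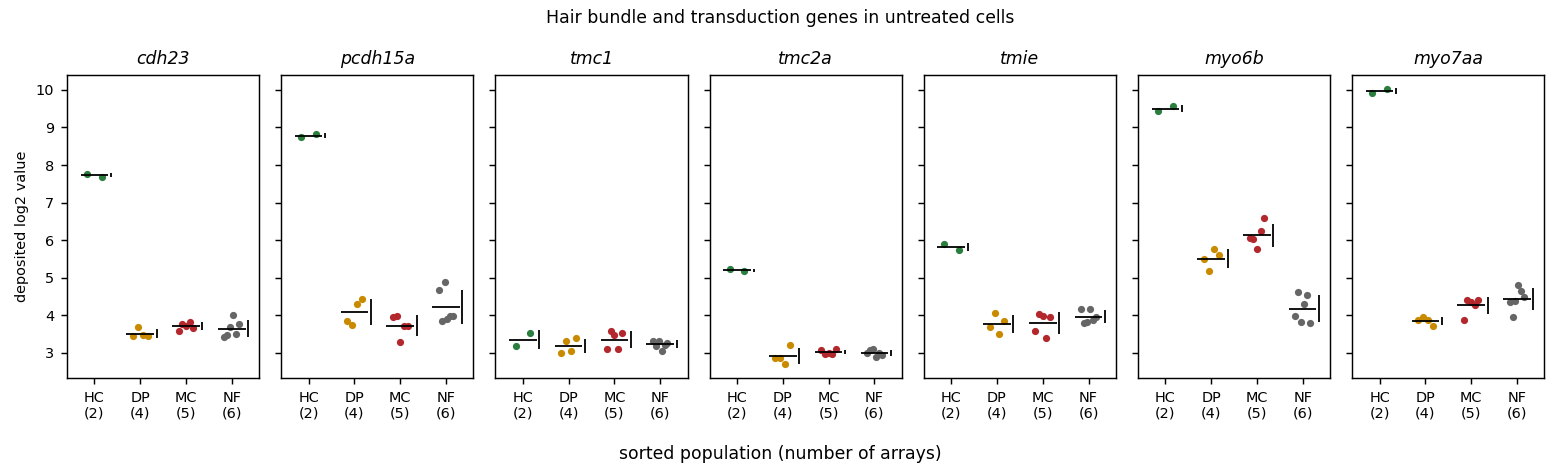
Deposited log2 values of the 7 genes in untreated hair cells (HC), mCherry+/GFP+ mantle cells (DP), mCherry+ mantle cells (MC) and non-fluorescent cells (NF), with 1 point per array, a line at the mean and a bar of 1 SD either way. Both hair cell arrays lie above all others for every gene except tmc1, and myo6b alone has both mantle populations above the non-fluorescent cells.

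The tip link came first. The gene cdh23, for the upper cadherin, read 7.76 and 7.69 in hair cells. In mCherry+/GFP+ mantle cells it read 3.44, 3.69, 3.47 and 3.46, in mCherry+ mantle cells 3.58, 3.78, 3.72, 3.83 and 3.66, and in non-fluorescent cells 3.43 to 4.01 with a median of 3.59. The hair cell arrays stood apart and the other 3 populations lay in one range. Hair cells exceeded non-fluorescent cells by 4.08 ± 0.16 on the log2 scale (SE), a 16.9-fold difference (adjusted p = 1.24e-12, limma). The differences were 4.01 ± 0.17 against mCherry+ mantle cells (adjusted p = 1.76e-12, limma) and 4.21 ± 0.17 against mCherry+/GFP+ mantle cells (adjusted p = 1.86e-12, limma).

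The gene pcdh15a, for the lower cadherin, read 8.73 and 8.83 in hair cells. It read 3.85, 3.75, 4.30 and 4.44 in mCherry+/GFP+ mantle cells, 3.95, 3.97, 3.29, 3.71 and 3.72 in mCherry+ mantle cells, and 3.86 to 4.90 with a median of 3.97 in non-fluorescent cells. The non-fluorescent arrays were the more scattered, with replicates 1 and 3 above the other 4, and all stayed far below the hair cells. The excess of hair cells over non-fluorescent cells was 4.57 ± 0.28, or 23.8-fold (adjusted p = 2.47e-10, limma). It was 5.06 ± 0.29 over mCherry+ mantle cells (adjusted p = 7.52e-11, limma) and 4.70 ± 0.30 over mCherry+/GFP+ mantle cells (adjusted p = 4.19e-10, limma).

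Of the 3 measured genes of the channel complex, 2 were called. The subunit gene tmc2a read 5.22 and 5.18 in hair cells. The mCherry+/GFP+ mantle arrays read 2.86, 2.86, 2.72 and 3.21, the mCherry+ mantle arrays 3.07, 2.98, 2.99, 2.98 and 3.09, and the non-fluorescent arrays 2.90 to 3.11 with a median of 3.00. Hair cells were the one population to leave the range near 3. The difference from non-fluorescent cells was 2.20 ± 0.14, or 4.59-fold (adjusted p = 7.4e-10, limma), with 2.18 ± 0.15 against mCherry+ mantle cells (adjusted p = 9.68e-10, limma) and 2.29 ± 0.15 against mCherry+/GFP+ mantle cells (adjusted p = 9.8e-10, limma).

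The gene tmie encodes a small membrane protein that the channel complex needs. It read 5.89 and 5.74 in hair cells. The mCherry+/GFP+ mantle arrays read 3.70, 4.05, 3.50 and 3.84, the mCherry+ mantle arrays 3.58, 4.04, 3.99, 3.39 and 3.96, and the non-fluorescent arrays 3.79 to 4.17 with a median of 3.92. Again the hair cell arrays stood alone. Hair cells exceeded non-fluorescent cells by 1.85 ± 0.20, or 3.61-fold (adjusted p = 5.63e-07, limma). Against mCherry+ mantle cells the difference was 2.02 ± 0.20 (adjusted p = 1.97e-07, limma) and against mCherry+/GFP+ mantle cells 2.04 ± 0.21 (adjusted p = 3.32e-07, limma).

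The other channel subunit gene, tmc1, read 3.18 and 3.53 in hair cells. The mCherry+/GFP+ mantle arrays read 3.00, 3.31, 3.06 and 3.39, the mCherry+ mantle arrays 3.10, 3.58, 3.47, 3.09 and 3.53, and the non-fluorescent arrays 3.04 to 3.33 with a median of 3.24. All 4 populations overlapped. The difference between hair cells and non-fluorescent cells was 0.13 with a 95% interval of -0.25 to 0.50 and was not called. It was 0.00 (-0.38 to 0.38) against mCherry+ mantle cells and 0.16 (-0.23 to 0.56) against mCherry+/GFP+ mantle cells. The mean of tmc1 over the untreated arrays was 3.27, below the 3.77 that is the median of all probe sets, and so was that of tmc2a, 3.25. No detection call was used, so these values do not show whether tmc1 mRNA differed between populations below what its probe set can measure.

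Both motor genes were higher in hair cells. The gene myo7aa, for myosin VIIA, read 9.92 and 10.02 in hair cells. The mCherry+/GFP+ mantle arrays read 3.88, 3.95, 3.89 and 3.71, the mCherry+ mantle arrays 3.89, 4.40, 4.36, 4.27 and 4.42, and the non-fluorescent arrays 3.97 to 4.79 with a median of 4.43. The hair cells were again alone at the top, while mCherry+/GFP+ mantle cells lay below every non-fluorescent array. Hair cells exceeded non-fluorescent cells by 5.53 ± 0.20, or 46.2-fold (adjusted p = 2.79e-13, limma). The excess was 5.70 ± 0.20 over mCherry+ mantle cells (adjusted p = 2.53e-13, limma) and 6.11 ± 0.21 over mCherry+/GFP+ mantle cells (adjusted p = 2.38e-13, limma). The second probe set of myo7aa was dimmer and gave a smaller excess over non-fluorescent cells, 3.13 ± 0.24 (adjusted p = 5.02e-09 over 20806 probe sets, limma).

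The gene myo6b, for myosin VI, read 9.43 and 9.57 in hair cells. It read 5.50, 5.17, 5.77 and 5.61 in mCherry+/GFP+ mantle cells, 6.05, 6.03, 5.76, 6.25 and 6.58 in mCherry+ mantle cells, and 3.79 to 4.63 with a median of 4.14 in non-fluorescent cells. Here the populations formed steps, with hair cells at the top, both mantle populations between and non-fluorescent cells at the bottom. Hair cells exceeded non-fluorescent cells by 5.32 ± 0.25, or 40.0-fold (adjusted p = 6.27e-12, limma). The excess over mCherry+ mantle cells was 3.37 ± 0.25, or 10.3-fold (adjusted p = 3.77e-09, limma), and over mCherry+/GFP+ mantle cells 3.99 ± 0.26, or 15.9-fold (adjusted p = 7.24e-10, limma).

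**Figure D2:**
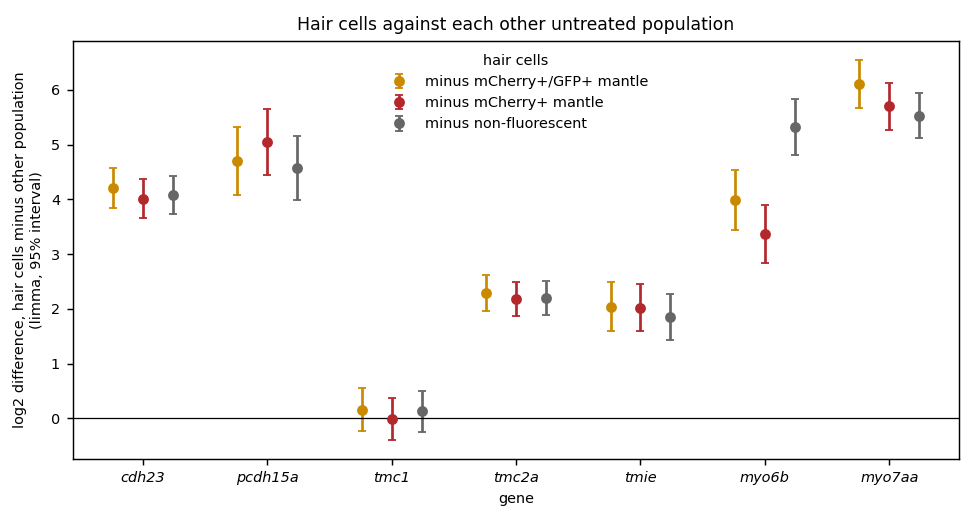
Log2 difference of hair cells minus mCherry+/GFP+ mantle cells, mCherry+ mantle cells and non-fluorescent cells for each gene, with the 95% interval from limma. The 3 intervals of tmc1 hold 0, the other 18 lie above it, and myo6b has its smallest difference against mCherry+ mantle cells, 3.37.

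Between the mantle and the rest of the skin, myo6b was the gene that stood out. It was higher in mCherry+ mantle cells than in non-fluorescent cells by 1.96 ± 0.18, or 3.89-fold, with no overlap (adjusted p = 1.68e-07, limma). Markers of other skin cells moved in this comparison, with 11 of 14 keratinocyte, 10 of 12 blood cell and 16 of 16 muscle markers lower in mCherry+ mantle cells and none higher. Their mean log2 levels were 5.98 to 6.93, 3.75 to 5.27 and 4.00 to 4.51 in mCherry+ mantle cells, against 8.71 to 9.67, 5.33 to 8.26 and 4.99 to 6.26 in non-fluorescent cells. Their part in the myo6b difference was not tested. The gene was the 1 member called of 7 in this comparison, in which 32.3% of all genes were called. In mCherry+/GFP+ mantle cells, myo6b was 1.34 ± 0.20 above non-fluorescent cells, or 2.52-fold, also without overlap (adjusted p = 4.05e-05, limma). There 8 of 14 keratinocyte, 12 of 12 blood cell and 14 of 16 muscle markers were lower and none was higher. The myo7aa level was lower there, by 0.58 ± 0.16 (a difference of -0.58, adjusted p = 0.00781, limma), so that 2 of 7 members were called where 31.4% of all genes were. The second probe set of myo7aa gave 0.07 ± 0.19 in that comparison (adjusted p = 0.814, limma), and the mean of both gave -0.26 (adjusted p = 0.177, limma). Setting all array medians equal moved the median of all genes by 0.15 in the comparison of mCherry+ mantle cells and by 0.11 in that of mCherry+/GFP+ mantle cells. On that scale myo6b differed by 2.11 and 1.45 and myo7aa in mCherry+/GFP+ mantle cells by -0.47, with all 3 still called.

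Between the mantle populations, myo6b was the one member called. Its level was lower in mCherry+/GFP+ mantle cells than in mCherry+ mantle cells by 0.62 ± 0.20 (a difference of -0.62, adjusted p = 0.0306, limma), but the top array of mCherry+/GFP+ mantle cells, 5.77, overlapped the lowest of mCherry+ mantle cells, 5.76. This was 1 of 7 members, where 25.3% of all genes were called. The call was lost without mCherry+/GFP+ replicate 1 (adjusted p = 0.0579, limma) or 2 (0.0943), and without mCherry+ replicate 4 (0.0618) or 5 (0.0781), and the adjusted p ran between 0.0114 and 0.0943 over all alternatives. Keratinocyte markers were also higher in mCherry+/GFP+ than in mCherry+ mantle cells, 7 of 14, with mean log2 levels of 7.44 to 8.18 against 5.98 to 6.93. Their part in the myo6b difference was not tested. The mean log2 level of the hair cell markers was 4.20 to 4.92 in mCherry+/GFP+ and 4.02 to 4.55 in mCherry+ mantle cells, against 4.19 to 5.23 in non-fluorescent cells. Their summed linear level was 710 to 2961 in mCherry+/GFP+ and 376 to 893 in mCherry+ mantle cells, against 442 to 1377 in non-fluorescent cells. Of the 16, 2 were higher and 1 lower in mCherry+/GFP+ mantle cells than in non-fluorescent cells, and 0 were higher and 3 lower in mCherry+ mantle cells. Their part in the mantle level of myo6b was not tested.

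The wider bundle was examined through lists of its other genes, of which 52 were measured under 80 listed names. Of these, 39 were higher in hair cells than in non-fluorescent cells, 3 were lower and 10 were not called, with a median log2 difference of 2.91. Against mCherry+ mantle cells 36 were higher and 5 lower, and against mCherry+/GFP+ mantle cells 35 were higher and 6 lower. Calls of higher expression made up 15.5%, 17.6% and 17.2% of all genes in those comparisons. The 15.5% against non-fluorescent cells is also the share for the single lists below. The share of all genes called lower is not given here, so the lower counts are not read as particular to the bundle. The lists were chosen with knowledge of earlier results of these data.

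Partners of the channel were higher in 3 of 5 cases. The gene lhfpl5b, whose protein helps to bring the channel to the tip link, averaged 10.5 ± 0.12 in hair cells (SD, n = 2) and 4.34 ± 0.57 in non-fluorescent cells (n = 6), a log2 difference of 6.15 ± 0.37 (SE, adjusted p = 2.11e-10, limma). The gene cib2, for a calcium-binding protein that binds TMC proteins, averaged 6.29 ± 0.11 in hair cells and 3.14 ± 0.37 in non-fluorescent cells, a difference of 3.15 ± 0.30 (adjusted p = 1.49e-07, limma). The second protocadherin 15 gene, pcdh15b, averaged 7.74 ± 0.11 in hair cells and 3.85 ± 0.35 in non-fluorescent cells, a difference of 3.90 ± 0.27 (adjusted p = 1.31e-09, limma). The paralogs lhfpl5a and cib3 were not called, with differences of 0.18 (95% interval -0.30 to 0.65) and 0.08 (-0.77 to 0.93).

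Both protocadherin 15 genes were thus higher in hair cells. Among further paralogs of the members, tmc5 was higher in hair cells than in non-fluorescent cells by 4.51 ± 0.27 (adjusted p = 1.75e-10, limma), tmc4 by 2.06 ± 0.38 (adjusted p = 0.000312, limma) and myo7ab by 0.53 ± 0.18 (adjusted p = 0.0319, limma). The myo7ab call was lost without either hair cell array (adjusted p = 0.133 and 0.169, limma), without replicate 3, 5 or 6 of the non-fluorescent cells (0.0516 to 0.0547), and in 8 of 29 alternatives in all. The TMC gene tmc6b was lower in hair cells, with a difference of -1.86 ± 0.28 (adjusted p = 3.66e-05, limma). The second myosin VI gene, myo6a, differed by 0.42 (95% interval -0.12 to 0.96) and was not called. In total 4 of 6 measured paralogs were higher and 1 was lower, with pcdh15b counted here and among the partners.

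Genes of Usher syndrome and of the ankle links, which tie stereocilia at their base, were higher in hair cells than in non-fluorescent cells in 10 of 10 cases. Their log2 differences ran down through clrn2 at 4.59 ± 0.19 (adjusted p = 1.54e-12, limma) and ptprq at 4.11 ± 0.18 (adjusted p = 2.63e-12, limma) to ush1gb at 2.19 ± 0.19 (adjusted p = 4.38e-08, limma). The smallest was whrnb, for the scaffold protein whirlin, at 0.66 ± 0.22 with overlapping arrays (adjusted p = 0.0226, limma). The whrnb call was lost without hair cell replicate 2 (0.46, adjusted p = 0.285, limma) and in 4 of 29 alternatives in all. Of 7 other bundle myosins 5 were higher and 1 was lower. The class I myosins myo1ha and myo1hb had the largest absolute differences, 5.89 ± 0.21 (adjusted p = 2.65e-13, limma) and 5.19 ± 0.18 (adjusted p = 1.57e-13, limma). The 2 smallest absolute differences were those of myo1ca, 1.47 ± 0.30 (adjusted p = 0.000858, limma), and myo10l1, 0.10 (95% interval -0.50 to 0.69). The myosin called lower was not among those named. Of 25 genes of the actin core and stereocilia, 18 were higher and 1 was lower. The espin-like gene espnla differed by 6.14 ± 0.18 (adjusted p = 6.25e-14, limma) and pjvk, for pejvakin, by 4.98 ± 0.21 (adjusted p = 2.48e-12, limma). At the other end, tecta, which was on that list although it encodes alpha-tectorin, an extracellular matrix protein, and fscn2a differed by 0.15 (-0.24 to 0.53) and 0.06 (-0.38 to 0.49).

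**Figure D3:**
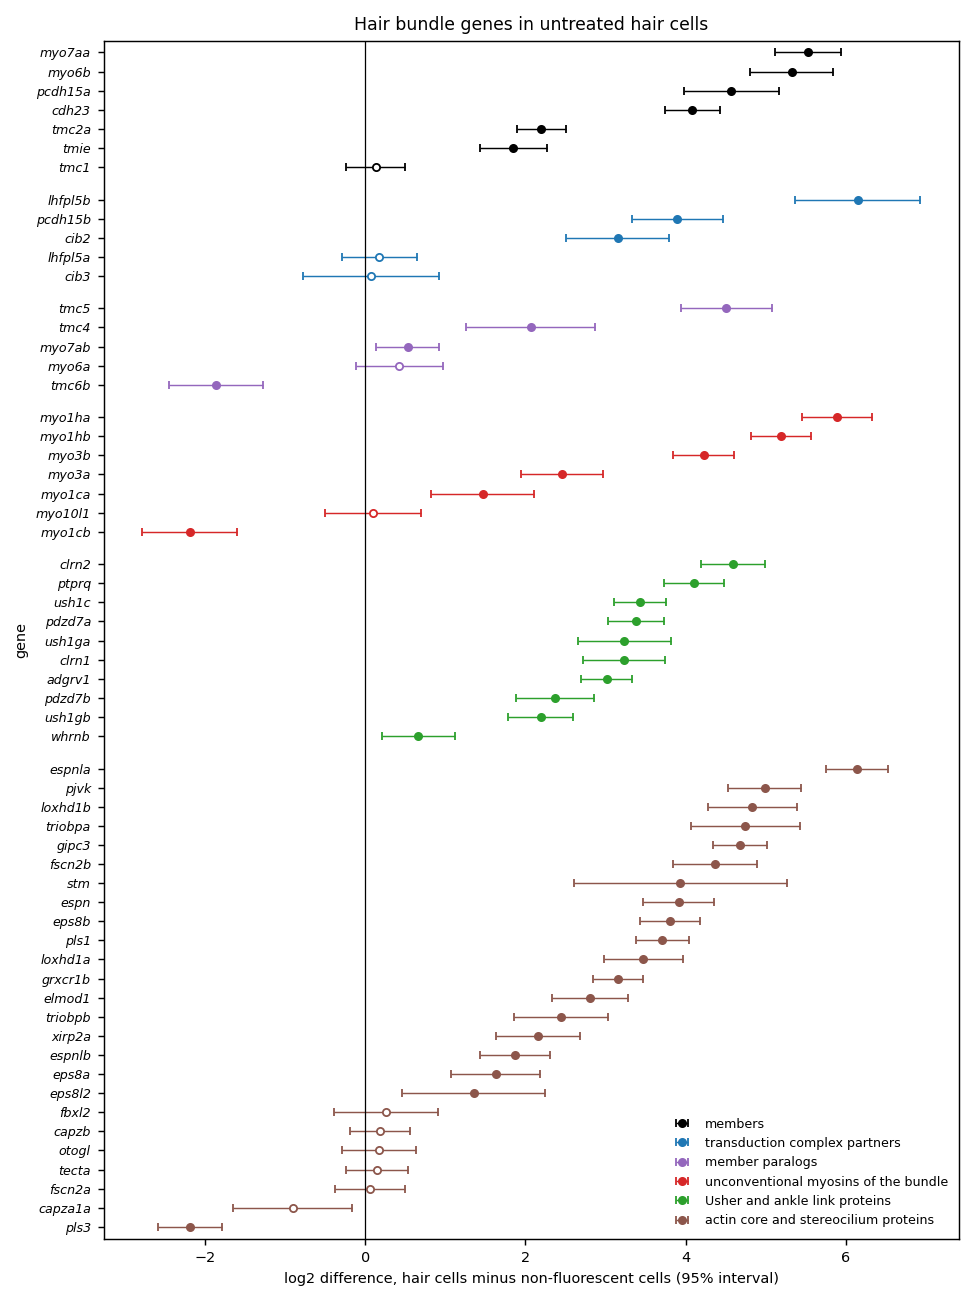
Log2 difference of untreated hair cells minus non-fluorescent cells for the 7 members and 52 other bundle genes, by list, with the 95% interval from limma; filled points were called at an adjusted p below 0.05. The lists of partners, paralogs, myosins and actin core proteins run from above 4 down to about 0 or below, while every Usher and ankle link gene lies above 0.

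Some of these genes were higher in mantle cells than in hair cells. The level of cib3 was 3.38 and 3.29 in hair cells, 6.59, 5.31, 5.85 and 7.25 in mCherry+/GFP+ mantle cells, 5.16, 5.16, 4.44, 5.28 and 5.67 in mCherry+ mantle cells, and 2.83 to 4.02 in non-fluorescent cells. Both mantle populations lay above both hair cells and non-fluorescent cells. The cib3 difference between hair cells and mCherry+/GFP+ mantle cells was -2.92 ± 0.43 (adjusted p = 2.67e-05, limma), and that between hair cells and mCherry+ mantle cells was -1.81 ± 0.41 (adjusted p = 0.00185, limma). The unconventional myosin gene myo10l1 had the same order, at 3.56 ± 0.08 in hair cells, 8.08 ± 0.29 in mCherry+/GFP+ mantle cells, 5.63 ± 0.25 in mCherry+ mantle cells and 3.47 ± 0.49 in non-fluorescent cells (SD, n = 2, 4, 5 and 6). The tmc4 level was 5.00 ± 0.17 in hair cells, 7.43 ± 0.85 in mCherry+/GFP+ mantle cells, 3.85 ± 0.40 in mCherry+ mantle cells and 2.93 ± 0.35 in non-fluorescent cells. Hair cells thus lay below mCherry+/GFP+ mantle cells for tmc4 by a difference of -2.44 ± 0.41 (adjusted p = 0.000106, limma).

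The gene pcdh15b was also higher in mCherry+ mantle cells than in non-fluorescent cells. It read 7.67 and 7.82 in hair cells, 4.94, 4.08, 4.07 and 4.67 in mCherry+/GFP+ mantle cells, 6.21, 6.02, 5.70, 6.00 and 5.51 in mCherry+ mantle cells, and 3.47 to 4.28 in non-fluorescent cells. The mCherry+ mantle cells exceeded non-fluorescent cells by 2.04 ± 0.20 (adjusted p = 2.78e-07, limma), and mCherry+/GFP+ mantle cells lay below mCherry+ mantle cells by a difference of -1.44 ± 0.22 (adjusted p = 0.000101, limma). Between mCherry+/GFP+ mantle cells and non-fluorescent cells the arrays overlapped and the difference was 0.60 ± 0.21 (adjusted p = 0.0397, limma). That call was lost in 10 of 29 alternatives, among them those without replicate 1 or 4 of the mCherry+/GFP+ mantle cells (0.157 and 0.11) and without replicate 1, 5 or 6 of the non-fluorescent cells (0.0773 to 0.0862). For its paralog pcdh15a, the mCherry+ mantle cells and non-fluorescent cells differed by -0.48 ± 0.21, which was not called (adjusted p = 0.0838, limma). Over the 52 other bundle genes, 11 were higher and 5 lower in mCherry+ mantle cells than in non-fluorescent cells, or 15 and 3 with array medians set equal, where 32.3% of all genes were called in either direction. In mCherry+/GFP+ mantle cells 13 were higher and 3 lower, or 13 and 0 with array medians set equal, where 31.4% of all genes were called. Both counts are near the share over all genes.

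The genes most like each member were found over the means of the 12 groups, each gene centred on its own mean, by the root mean square (RMS) difference on the log2 scale. This is a description. For the genes high in hair cells alone, the 2 hair cell arrays set most of the likeness. The nearest genes of cdh23 were gltpb (0.09), the bundle phosphatase gene ptprq (0.09) and APBB3 (0.11). Those of pcdh15a were bbof1b (0.16), scg5 (0.17) and got1l1 (0.17). Those of myo7aa were pou4f3 (0.15), the hair cell transcription factor gene whose promoter marked the sort, sema7a (0.16) and slc24a3 (0.17). The neighbours of tmc2a were slc24a4a (0.10), the pigment cell gene mitfa (0.11) and sqleb (0.11), and those of tmie were kcna4 (0.10), lmo7b (0.10) and slc24a4a (0.12). The members tmc2a and tmie were also close to each other (0.12). For myo6b even the nearest genes lay farther away: rab3ab (0.48), fgf10b (0.51) and pcdh15b (0.53). The group means of tmc1 spanned less than 2 log2 units, so no neighbours were sought.

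After copper, myo6b was called lower in mantle cells at 3 h and 5 h, and both calls were lost with a block term described below. The probe sets used for the other 6 genes were not called there at any time. Over 28 tests of the mantle cells against untreated cells, 7 genes at 4 times, 2 were called, both for myo6b. The share of all genes called in these comparisons was 1.50% at 1 h, 14.9% at 3 h, 12.4% at 5 h and 4.00% at 11 h. The number of members called is not read as particular to the members.

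The myo6b level in mCherry+ mantle cells was 6.05, 6.03, 5.76, 6.25 and 6.58 before treatment. It was 6.36, 6.28, 5.67 and 6.32 at 1 h, 5.12, 5.51, 5.44 and 5.01 at 3 h, 5.30, 5.29, 5.07 and 5.56 at 5 h, and 5.38, 6.67, 6.09 and 6.07 at 11 h. Every array of 3 h and 5 h lay below every untreated array and every array of 1 h, and at 11 h 2 of 4 arrays were inside the untreated range, with 1 above it and 1 below. Against untreated mantle cells the difference was 0.02 ± 0.24 at 1 h (adjusted p = 0.975, limma), -0.87 ± 0.24 at 3 h (adjusted p = 0.0112, limma), -0.83 ± 0.24 at 5 h (adjusted p = 0.0173, limma) and -0.08 ± 0.24 at 11 h (adjusted p = 0.907, limma). The falls at 3 h and 5 h were 1.82-fold and 1.78-fold.

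The level of myo6b in mantle cells at 3 h and 5 h was also lower than at 1 h. The 3 h and 5 h arrays are the same as in the comparison with untreated cells, so this is no separate observation. Against mantle cells at 1 h, myo6b differed by -0.89 ± 0.25 at 3 h (adjusted p = 0.0139, limma) and -0.85 ± 0.25 at 5 h (adjusted p = 0.0183, limma). The 2 calls were the only ones of 21 tests of the members at 3 h, 5 h and 11 h against 1 h, where 13.7%, 13.5% and 0.114% of all genes were called. Tests added after the values were seen set 11 h above 3 h by 0.78 ± 0.25 (adjusted p = 0.0337, limma) and above 5 h by 0.75 ± 0.25 (adjusted p = 0.0417, limma), with 12.2% and 12.7% of all genes called. Array replicate 1 of 11 h, at 5.38, overlapped the earlier times.

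The deposited values of 3 h and 5 h are tied to each other. In each of the 2 populations, the deviations of replicate 4 at 3 h and at 5 h from their group means were mirror images (correlation -1 across probe sets). A fit with replicates 1 to 3 of 3 h and 5 h as a separate block within either population ended every one of these calls. It leaves the estimated differences as they were, since the mirrored values fix them, so their size under that fit says nothing more about the fall. What changed was the SE, which for 11 h against 3 h went from 0.25 to 0.34. The calls were thus lost at unchanged differences. The adjusted p was 0.184 at 3 h and 0.241 at 5 h against untreated cells, 0.176 and 0.202 against 1 h, and 0.277 and 0.298 for 11 h against 3 h and 5 h (limma). Over the alternatives that kept all arrays, the adjusted p against untreated cells ran between 0.00273 and 0.208 at 3 h and between 0.0107 and 0.283 at 5 h. The 5 h call against untreated cells was also lost without mantle replicate 3 of 5 h (adjusted p = 0.0584, limma) or untreated replicate 5 (0.0641). The 5 h call against 1 h was lost without 1 h replicate 1 (0.0586) or 4 (0.0508) or 5 h replicate 3 (0.0612).

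Some keratinocyte markers were higher in mantle cells after copper, with the largest number at 3 h. Of 14 measured, 1 was higher than in untreated mantle cells at 1 h, 8 at 3 h, 2 at 5 h and 3 at 11 h. Their mean log2 level was 5.98 to 6.93 before treatment, 6.41 to 7.54 at 1 h, 7.37 to 9.01 at 3 h, 6.29 to 8.30 at 5 h and 6.93 to 7.64 at 11 h. Hair cell markers were higher in 2 of 16 cases at 3 h and 3 of 16 at 5 h. Of all genes, 1.50% were called in either direction at 1 h and 14.9% at 3 h. At 5 h and 11 h the shares were 12.4% and 4.00%. The hair cell marker counts are not read as particular to those markers. The part of either marker list in the myo6b values was not tested.

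In non-fluorescent cells myo6b lay between 3.17 and 4.29 after copper (median 4.04, n = 19) and was not called at any time. The difference from untreated cells in mantle cells minus that in non-fluorescent cells was -0.69 at 3 h (95% interval -1.36 to -0.02, adjusted p = 0.158, limma) and -0.56 at 5 h (-1.23 to 0.11, adjusted p = 0.321, limma), so a difference between the populations was not shown. Of 28 such differences of responses 0 were called in limma, 1 had an unadjusted p below 0.05, and the shares of all genes called were 2.22% at 1 h, 14.2% at 3 h, 6.85% at 5 h and 1.30% at 11 h.

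**Figure D4:**
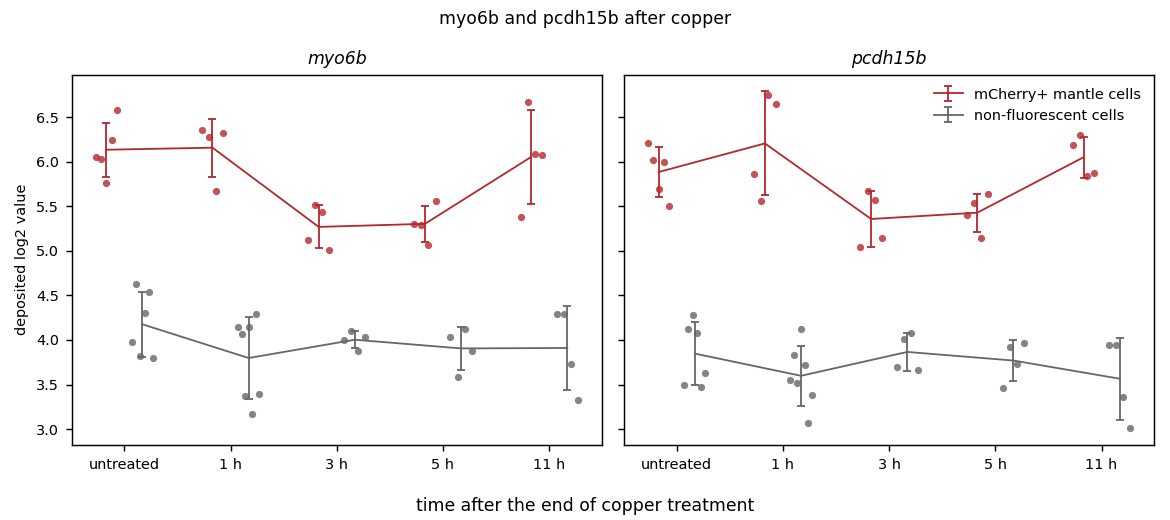
Deposited log2 values of myo6b and of pcdh15b in mCherry+ mantle cells and non-fluorescent cells, untreated and at 4 times after copper, with 1 point per array and group means joined by lines (bars, 1 SD). Mantle myo6b averages 6.13 untreated, 6.16 at 1 h, 5.27 at 3 h, 5.30 at 5 h and 6.05 at 11 h, and non-fluorescent myo6b averages 3.80 to 4.18.

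The protocadherin gene pcdh15b, among the nearest to myo6b in the comparison above, was also lower in mantle cells at 3 h and 5 h than at 1 h. The likeness was taken over group means that include these times, so the shared course is no separate observation. Its level was 5.87, 5.56, 6.75 and 6.65 at 1 h, 5.04, 5.67, 5.57 and 5.15 at 3 h, 5.40, 5.53, 5.15 and 5.64 at 5 h and 6.19, 6.30, 5.84 and 5.87 at 11 h. The arrays of 1 h overlapped those of 3 h and 5 h. Against 1 h, pcdh15b differed by -0.85 ± 0.24 at 3 h (adjusted p = 0.0138, limma) and -0.78 ± 0.24 at 5 h (adjusted p = 0.0245, limma). With the block term the adjusted p was 0.176 and 0.229. The 3 h call was also lost without 1 h replicate 3 (adjusted p = 0.0761, limma) or 4 (0.0662) or 3 h replicate 1 (0.0585), and the 5 h call without 1 h replicate 3 (0.123) or 4 (0.106) or 5 h replicate 3 (0.085). Against untreated mantle cells it was not called, with -0.53 at 3 h (adjusted p = 0.115, limma) and -0.46 at 5 h (adjusted p = 0.188, limma). These comparisons share arrays with those of myo6b. In contrast, lhfpl5b was higher in mantle cells at 3 h than in untreated ones by 1.43 ± 0.28 without overlap (adjusted p = 0.000422, limma). It averaged 5.74 ± 0.70 at 3 h (SD, n = 4) and 4.31 ± 0.23 in untreated mantle cells (n = 5). With the block term its adjusted p was 0.0416 (limma), and the difference from the response of non-fluorescent cells was not called (0.97 ± 0.38, adjusted p = 0.0804, limma). Of the 52 other bundle genes, 0 were higher and 0 lower in mantle cells at 1 h than before treatment, 7 and 2 at 3 h, 2 and 0 at 5 h, and 2 and 0 at 11 h. The shares over all genes were 1.50%, 14.9%, 12.4% and 4.00%, and none of these counts is read as particular to the bundle.

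The other members kept to narrow ranges in mantle cells after copper. Over the 16 treated mantle arrays cdh23 ranged over 3.64 to 4.26, pcdh15a over 3.29 to 4.14, tmc1 over 3.22 to 3.68, tmc2a over 2.79 to 3.45, tmie over 3.59 to 4.11 and myo7aa over 3.70 to 4.78. All of these lay below the hair cell arrays of the same gene, apart from those of tmc1. The largest difference from untreated mantle cells among the probe sets used for these 6 genes was 0.22 ± 0.18, for myo7aa at 3 h (adjusted p = 0.441, limma). The second probe set of myo7aa gave -0.42 at 1 h, -0.24 at 3 h, 0.21 at 5 h and -0.93 ± 0.25 at 11 h, the last of them called (adjusted p = 0.027, limma). At 11 h the differences were 0.06 for cdh23, 0.01 for pcdh15a, 0.02 for tmc1, 0.11 for tmc2a, 0.15 for tmie and -0.19 for myo7aa, with SEs of 0.12 to 0.20. For tmc2a at 11 h the 95% interval was -0.14 to 0.35.

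**Figure D5:**
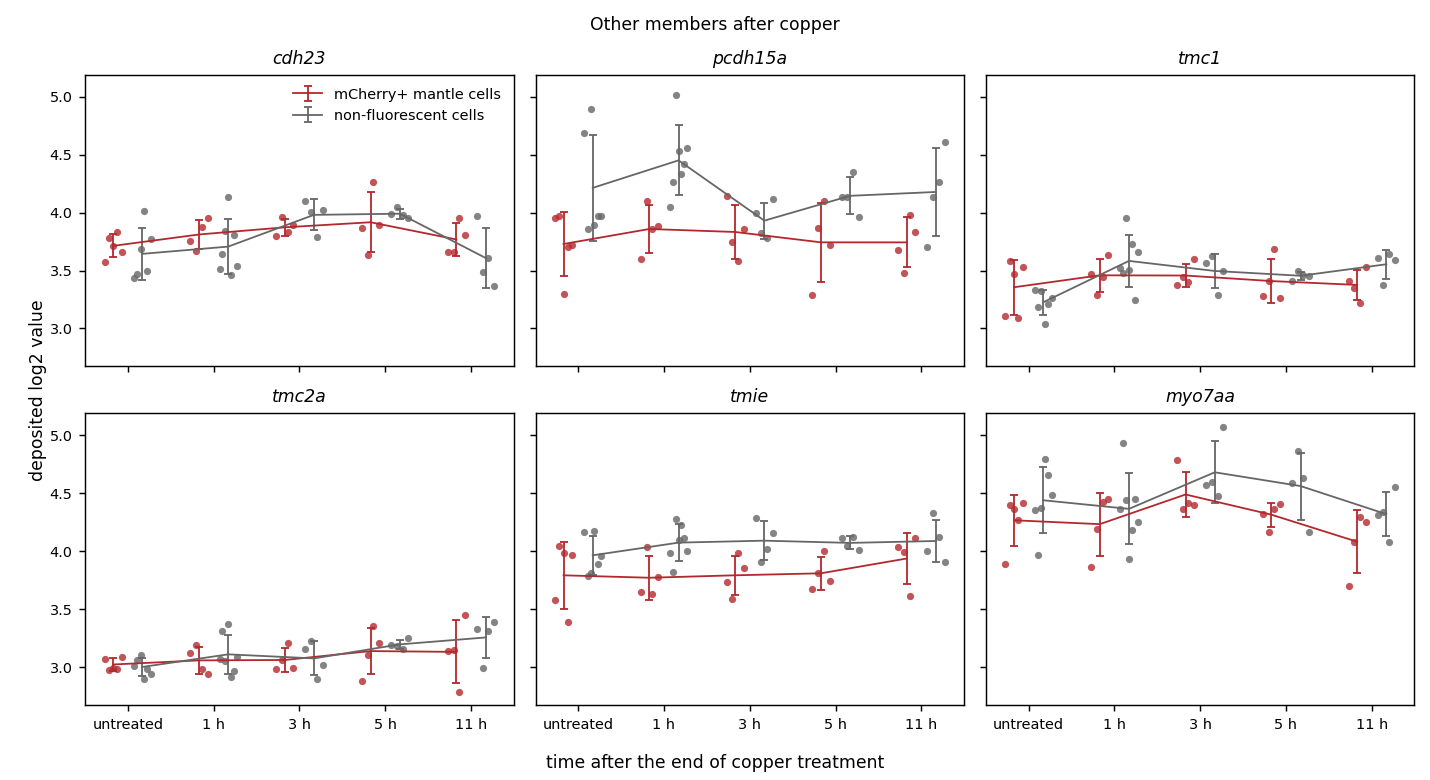
Deposited log2 values of the other 6 genes in mCherry+ mantle cells and non-fluorescent cells, untreated and at 4 times after copper, with 1 point per array and group means joined by lines (bars, 1 SD). For the probe sets shown, no mantle group after copper was called against untreated mantle cells. The one call in non-fluorescent cells against untreated cells is tmc1 at 1 h.

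In non-fluorescent cells, 1 of 28 tests of the probe sets used was called against untreated cells, while 11.4% of all genes were called at 1 h, 23.9% at 3 h, 16.4% at 5 h and 8.69% at 11 h. The gene was tmc1 at 1 h, with 3.25 to 3.95 (median 3.52, n = 7) against 3.04 to 3.33 untreated (median 3.24, n = 6). The groups overlapped and the difference was 0.36 ± 0.11 (adjusted p = 0.0235, limma). Setting array medians equal moved the median of all genes by -0.20 here and left tmc1 at 0.16 (adjusted p = 0.467, limma). The call was also lost without 1 h replicate 3 (0.0613) or untreated replicate 4 (0.0617). The second probe set of myo7aa was higher in non-fluorescent cells at 3 h by 0.98 ± 0.24 (adjusted p = 0.003, limma) and at 5 h by 0.94 ± 0.24 (adjusted p = 0.00632, limma), where the probe set used was not called. In the comparison of later times with 1 h, 1 of 21 tests was called, where 21.5% of all genes were called at 3 h, 20.5% at 5 h and 2.13% at 11 h. It was pcdh15a at 3 h, which read 4.00, 3.83, 3.78 and 4.12 at 3 h against 4.05 to 5.01 at 1 h (median 4.42), a difference of -0.52 ± 0.19 (adjusted p = 0.045, limma). It was not called with array medians set equal (-0.43, adjusted p = 0.117, limma), with the block term (0.317), or without any single one of replicates 3, 4, 6 and 7 of 1 h or the 4 arrays of 3 h (0.0525 to 0.118).

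Across the 4 times after copper, myo6b stayed higher in mantle cells than in non-fluorescent cells by 1.79 ± 0.12, or 3.46-fold (adjusted p = 3.23e-16, limma). Here 3 of 7 members were called, and 56.6% of all genes were. The others, pcdh15a and tmie, were lower in mantle cells, with differences of -0.38 ± 0.10 (adjusted p = 0.00194, limma) and -0.25 ± 0.07 (adjusted p = 0.00248, limma). Setting array medians equal moved the median of all genes by 0.27 and changed the split from 1 higher and 2 lower to 4 higher and 0 lower. On that scale myo6b differed by 2.06 and tmie by 0.02, and cdh23, tmc1 and tmc2a were called at 0.29, 0.17 and 0.21. Of the members called on either scale, myo6b alone was called on both. With the block term, pcdh15a (adjusted p = 0.0884, limma) and tmie (0.0993) were not called.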

How the data were processed

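The authors deposited log2 expression values of 52 arrays and 75212 probe sets, and per the submitters' processing notes they were made with RMA in Partek 6.6. The log base is not stated. Base 2 was taken from RMA and from the range of the values, -1.29 to 15.05. Per the labels, RNA was amplified before hybridization, untreated arrays that did not cluster were discarded, and the copper arrays were imported separately. Of the probe sets, 21661 were listed with a gene, 20806 of them with 1 symbol and 855 with several; 53551 were not named. The probe set with the highest mean stood for each of 19260 genes.

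limma 3.58.1 in R 4.3.3 was fitted to 17 untreated arrays and to all 46 mCherry+ mantle and non-fluorescent arrays, with no block and no filter. Figures were drawn with matplotlib 3.10.9. The script was tested on simulated data. The members and gene lists were chosen with earlier results of these data known. The text names the members, all measured partners and paralogs, and from each other bundle list the 2 genes with the largest and the 2 with the smallest absolute difference between hair cells and non-fluorescent cells. It also names defining cell type markers and the 3 nearest genes of each member whose group means span over 2. The comparisons of 11 h with 3 h and 5 h were added after seeing the data. Same-numbered samples did not deviate together in every pair of any 2 groups, so replicate numbers were treated as names. Between untreated mCherry+ mantle and non-fluorescent cells, 4 of 5 such pairs did, with correlations above 0.1, and these too were fitted unpaired. With the replicate block myo6b kept its call in that comparison. Between untreated mCherry+/GFP+ mantle and non-fluorescent cells, correlations of same-numbered arrays ran from -0.597, for replicate 4, to -0.0531. The cause of that opposed deviation was not tested. Alternatives were array median centring, quantile normalization, array weights, other probe set and filter rules, block terms and leaving out each array. Sequences were not used here.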

Additional observations from a re-analysis of the deposited data

Results flagged for a closer look

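Some single arrays stood far from the rest of their group by Dixon's test, which flags about 1 group in 20 by chance. Of 77 gene and group pairs tested, 4 were found. The cdh23 value of mCherry+/GFP+ mantle replicate 2 was 3.68562, with the other 3 at 3.44 to 3.47. The myo6b value of mantle replicate 3 at 1 h after copper was 5.67255, with the others at 6.28 to 6.36. The myo7aa value of untreated mCherry+ mantle replicate 1 was 3.88859, with the others at 4.27 to 4.42, and that of mantle replicate 1 at 3 h was 4.78461, with the others at 4.36 to 4.42.

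The second probe set of myo7aa gave a response to copper that differed between mantle and non-fluorescent cells. The mantle response minus the non-fluorescent response was -1.2235 at 3 h (adjusted p = 0.0148, limma) and -1.6055 at 11 h (adjusted p = 0.0173, limma). The probe set used for myo7aa gave -0.02 and -0.07 at those times and was not called. The cause of the disagreement was not tested.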

How the results depend on the processing

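In the 3 hair cell comparisons, every member's call or lack of one was kept in all 606 combinations of gene, comparison and setting. There 6 of 7 members were called except with dim genes left out, where tmc2a was not tested and 5 were called. In the other comparisons 1877 of 1939 such combinations kept their call or lack of one, 55 lost the call, 4 gained one and 3 reversed. Direction was compared only where the main result was called, so a changed sign in an uncalled result counted as kept. Copper comparisons entered these counts only where the member was called or was myo6b. Leaving out an array counted as a setting even where that array belonged to neither compared group. Such settings left the compared means as they were, so the counts of kept results overstate how stable the results were. The same holds for the counts of alternatives given with single genes above. The reversals were myo7aa in mCherry+/GFP+ mantle against non-fluorescent cells (0.070082 with its other probe set) and tmie in mantle against non-fluorescent cells after copper (0.016957 with array median centring, 0.019726 with the adjustment block as well). Members called between the mantle populations numbered 1, against 2 with centring, 0 with array weights, 0 with the replicate block, 0 at an adjusted p below 0.01 and 0 to 2 without 1 array. For mCherry+/GFP+ mantle against non-fluorescent cells 2 became 1 with the mean of probe sets and 1 with an untreated adjustment block and centring (added after seeing the data). That block joined some untreated non-fluorescent arrays with some untreated mCherry+ mantle arrays. Under the block alone, whrnb in hair cells (adjusted p = 0.115, limma) and pcdh15b in mCherry+/GFP+ mantle cells (0.19) were not called against non-fluorescent cells. For mCherry+ mantle against non-fluorescent cells 1 became 2 with all 52 arrays in 1 fit. In mantle cells after copper the 2 calls against untreated cells became 0 at p below 0.01, 0 with the adjustment block, 0 with centring too, and 1 to 2 without 1 array. The 2 calls against 1 h became 0, 0 and 0 under those settings, 1 with quantile normalization and 1 to 2 without 1 array. Mantle against non-fluorescent cells after copper gave 3, against 1 with the adjustment block and 1 with centring too. The difference of responses gave 0, against 2 with the mean of probe sets. The 1 call in non-fluorescent cells against untreated cells became 3 with array weights, 3 with the mean of probe sets, 0 to 2 without 1 array, and 0 in each of 6 settings: p below 0.01, centring, adjustment block with centring, quantile normalization, dim genes left out and only the groups compared. The 1 call against 1 h became 3 with the mean of probe sets, 0 to 2 without 1 array, and 0 with p below 0.01, the adjustment block, the same with centring, array weights, only the groups compared and the replicate block. With the replicate block myo6b between the mantle populations was -0.53 (adjusted p = 0.0703, limma). The other bundle genes higher in hair cells numbered 35 to 39, 33 to 37 and 31 to 36 against non-fluorescent, mCherry+ and mCherry+/GFP+ mantle cells.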
